A study of Mus musculus with 6 samples.

Results

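Desmosome genes were followed in the comparison of CDH1+/THY1+ with CDH1-/THY1+ male germline stem cells of the mouse. The 9 genes were chosen by name: the plakin Dsp, the armadillo proteins Jup, Pkp1, Pkp2, Pkp3 and Pkp4, the desmosomal cadherins Dsg2 and Dsc2, and the membrane protein gene Perp. Of the 9, 7 had a row among the 22432 genes of the authors' deposited table, while Dsg2 and Dsc2 had none and were not analysed here.

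A desmosome is a spot-like junction that ties the intermediate filaments of neighbouring cells together. Desmogleins and desmocollins, which belong to the cadherin superfamily, bridge the gap between the cells. Plakoglobin and the plakophilins bind their tails, and desmoplakin links that plaque to keratin, vimentin or desmin filaments. Such junctions are best known from epithelia and heart muscle, and plakoglobin can also sit at adherens junctions, the junctions of E-cadherin, the protein made by Cdh1.

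Total RNA had been sequenced from 3 CDH1+/THY1+ and 3 CDH1-/THY1+ samples of cultured germline stem cells, which renew themselves and give rise to sperm. CDH1 is E-cadherin, and THY1 is a surface glycoprotein used to enrich such cells. Each population had 1 sample from each of the cultures named RP7 (8 weeks, strain label OCT4/GFP; Dox-OCT4), RP5 (19 days, the same strain label) and WT1 (5 weeks, C57BL/6), all male and at passage 6 to 8. Both populations had been grown on DR4 mouse embryonic fibroblast feeders in a medium with GDNF and FGF. Whether feeder cells were removed before RNA isolation, and how many animals gave rise to each culture, was not given in the sources used here. The 3 cultures differ in the age given, and WT1 also in strain label. Spread within a population therefore holds differences between cultures, of age and of strain label, which cannot be told apart.

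The deposited table holds 1 comparison and no value per library, so levels are means over all 6 libraries and errors come from the authors' test. A value with ± is the log2 of the ratio of CDH1+/THY1+ to CDH1-/THY1+ cells, with its standard error. A gene was called where the authors' adjusted p (DESeq2) was under 0.05. The direction was read from the table's name, and Cdh1 itself was not analysed here. Behind the adjusted p-values stood 19743 tests, and 532 tested genes, all of them called, were not analysed here. No row had a log2 fold change above 2.14. Depth per library is unknown, but the size factors worked out from the spacing of low mean counts ran from 0.913 to 1.08. Defining germ cell genes were present per the authors' deposited table, with mean normalised counts over all 6 libraries of 4419 for Ddx4 and 14797 for Dazl. Both were called lower in CDH1+/THY1+ cells, at -1.73 ± 0.17 for Ddx4 and -1.53 ± 0.21 for Dazl.

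Desmosome genes were higher in CDH1+/THY1+ cells: Dsp, Pkp3, Pkp2, Jup and Pkp4 rose by 1.71-fold to 4.14-fold, and none of the 7 had a fold change below 0. Pkp1 and Perp were not called, at 0.22 ± 0.59 and 0.83 ± 0.56 per the authors' deposited table. The 5 called genes are 71.4% of the 7 with a row, where 33.5% of 19211 genes with an adjusted p were called in either direction, 17.1% higher and 16.4% lower. These shares, also where given below, leave out the tested genes without a row. Over all 19743 tests, 35.3% were called. The median log2 fold change of the 7 genes was 0.93, against 0.01 over all genes with a p-value. A Benjamini-Yekutieli adjustment, which called 16.3% of all genes, left 3 of the 5 calls and ended those of Dsp (adjusted p = 0.0523) and Jup (adjusted p = 0.117). All 5 stood at an adjusted p under 0.01 (23% of all genes called), with no filter on the mean count (27.6%), at a mean count of at least 50 (46.1%) and with a change of at least 1.5-fold (25.9%). Leaving out the genes of largest standard error (27.3% of the rest called) removed 4 of the 5 from the test and kept the call of Pkp4. In bulk RNA of this kind, fewer cells of a type and less RNA per cell cannot be told apart.

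**Figure D1:**
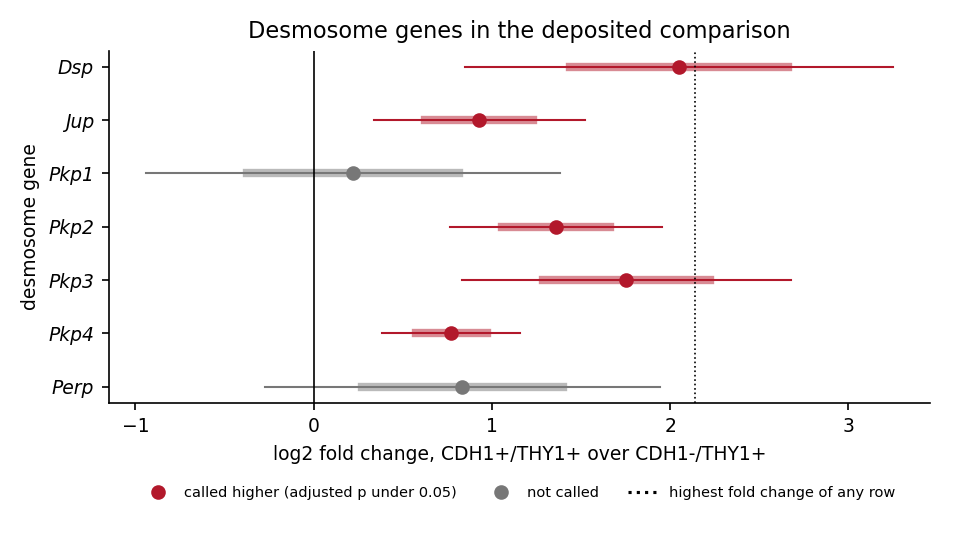
Log2 fold change of the 7 desmosome genes with a row (x axis, ratio of CDH1+/THY1+ to CDH1-/THY1+; 3 samples each), from the authors' deposited table. Points are fold changes, thick bars 1 standard error, thin bars the 95% interval, red marks a call at an adjusted p under 0.05 and the dotted line is the highest fold change of any row, 2.14. The intervals of Dsp, Jup, Pkp2, Pkp3 and Pkp4 lie above 0, and those of Pkp1 and Perp reach below it.

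Desmoplakin, encoded by Dsp (ENSMUSG00000054889, chromosome 13, 38151294 to 38198577 on the plus strand of GRCm38), is the plakin that anchors intermediate filaments to the junction. Its mean normalised count was 908 per the authors' deposited table, and its fold change was 2.05 ± 0.61 on the log2 scale (adjusted p = 0.00382). That is 4.14-fold higher, with a 95% interval of 1.80-fold to 9.50-fold, and it stood at percentile 99.7 of the fold changes of all rows. The 532 tested and called genes without a row are not in that ranking, so its rank among all tested genes is not known. The deposited mean and fold change together imply a normalised count near 1463 in CDH1+/THY1+ cells and 354 in CDH1-/THY1+ cells. Such implied counts carry no error of their own, and they understate the gap between the populations wherever the authors' fold changes had been shrunken towards 0. The standard error of Dsp exceeded those of all 200 genes nearest to it in mean count. Gm10129, an unclassified gene annotated on the opposite strand, shares 499 of the 9659 exonic bases of Dsp. Whether the counting used strand was not given in the sources used here; reads of that stretch cannot be assigned.

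Plakoglobin, encoded by Jup (ENSMUSG00000001552, chromosome 11, 100368958 to 100397763 on the minus strand), binds the tails of desmosomal and classical cadherins. Jup had a mean normalised count of 1149 per the authors' deposited table. Its log2 fold change was 0.93 ± 0.30 (adjusted p = 0.00873), or 1.90-fold (95% interval 1.26-fold to 2.87-fold). This corresponds to implied counts of 1506 in CDH1+/THY1+ cells and 792 in CDH1-/THY1+ cells.

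Plakophilins are armadillo proteins that cluster desmosomal cadherins and desmoplakin at the plaque. Of the 4, 3 were called higher, where 17.1% of all genes with an adjusted p were. Pkp2 (ENSMUSG00000041957, chromosome 16, 16213318 to 16272712), the plakophilin of heart muscle and simple epithelia, averaged 497 normalised counts with a log2 fold change of 1.36 ± 0.30 (adjusted p = 6.6e-05) per the authors' deposited table. Of the 5 called genes it had the lowest adjusted p, with a 2.56-fold rise (95% interval 1.70-fold to 3.87-fold) and implied counts of 715 in CDH1+/THY1+ cells and 279 in CDH1-/THY1+ cells. Pkp3 (ENSMUSG00000054065, chromosome 7, 141078218 to 141090510), a plakophilin of most epithelia, stood at 1.75 ± 0.47 (adjusted p = 0.0011) with a mean count of 74.2 per the authors' deposited table. It rose by 3.37-fold (95% interval 1.78-fold to 6.39-fold), to an implied count of 114 in CDH1+/THY1+ cells, against 33.9 in CDH1-/THY1+ cells.

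Pkp4 (ENSMUSG00000026991, chromosome 2, 59160850 to 59355208), also called p0071, occurs at both desmosomes and adherens junctions. It had the smallest change of the called genes, 0.77 ± 0.20 (adjusted p = 0.000605), with a mean count of 1090.0 per the authors' deposited table. The rise was 1.71-fold (95% interval 1.30-fold to 2.23-fold), with implied counts of 1375 in CDH1+/THY1+ cells and 805 in CDH1-/THY1+ cells. Pkp1 (ENSMUSG00000026413, chromosome 1, 135871395 to 135919207), the plakophilin of stratified epithelia, had a mean count of only 8.02 per the authors' deposited table and no call (adjusted p = 0.817). Its 95% interval, -0.94 to 1.38 on the log2 scale, covers a fall and also the rise seen in Pkp2.

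Perp (ENSMUSG00000019851, chromosome 10, 18845020 to 18857073) encodes a membrane protein that desmosomes of stratified epithelia need and whose gene is a target of p53 and p63. Perp was not called (0.83 ± 0.56, adjusted p = 0.258) at a mean count of 539.6 per the authors' deposited table. Its implied counts were 691 in CDH1+/THY1+ cells and 388 in CDH1-/THY1+ cells. The 95% interval, -0.27 to 1.94 on the log2 scale, includes no change and also the estimates of Pkp2 and Pkp3.

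The plot of levels sets the 7 genes on 1 scale. Per kb of merged exon, the mean normalised count per the authors' deposited table was 276 for Perp, 191 for Pkp4, 178 for Jup, 94.0 for Dsp, 92.8 for Pkp2, 20.5 for Pkp3 and 1.60 for Pkp1, against a median of 31.6 over all rows with an annotated length. Without values per library, neighbours in this order, such as Pkp4 and Jup or Dsp and Pkp2, cannot be separated. Among the plakophilins, Pkp4 made up 62.4% of the summed count per kb, Pkp2 30.3%, Pkp3 6.71% and Pkp1 0.522%. By the implied counts, Pkp4 made up 59.1% in CDH1+/THY1+ cells and 69.2% in CDH1-/THY1+ cells, Pkp2 32.7% in CDH1+/THY1+ cells and 25.5% in CDH1-/THY1+ cells, and Pkp3 7.76% in CDH1+/THY1+ cells and 4.60% in CDH1-/THY1+ cells. These shares carry no error and were not tested. The plakophilin with the largest fold change, Pkp3, had a small share of the count per kb, and Pkp4, with the largest share, had the smallest change of the 3 called.

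**Figure D2:**
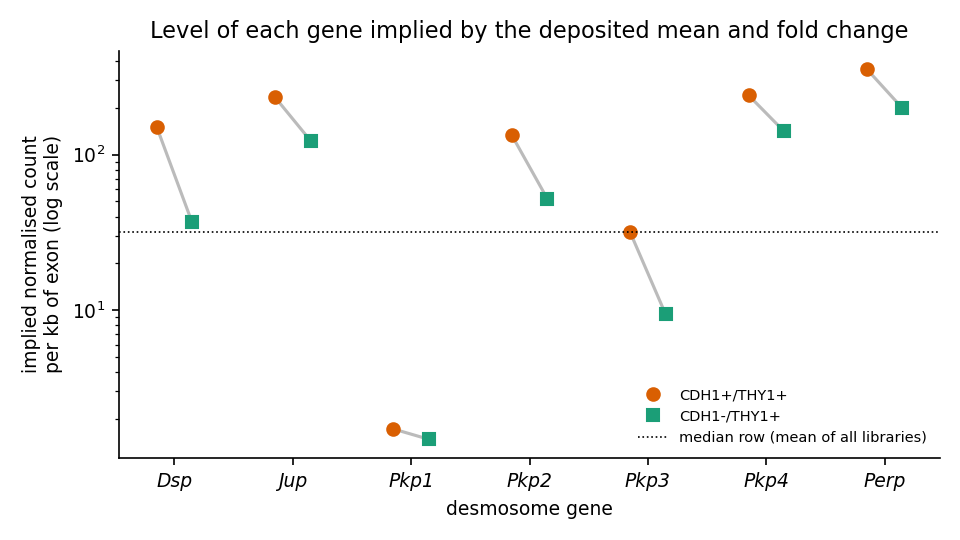
Normalised count per kb of exon (y axis, log scale) for each desmosome gene in CDH1+/THY1+ cells (orange circles) and CDH1-/THY1+ cells (green squares), implied by the deposited mean over 6 libraries and the deposited fold change; no error can be drawn, since there are no values per library. The dotted line is the median row, 31.6. Dsp stands at 151 in CDH1+/THY1+ cells and 36.6 in CDH1-/THY1+ cells, and Pkp1 at 1.72 in CDH1+/THY1+ cells and 1.48 in CDH1-/THY1+ cells.

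**Figure D3:**
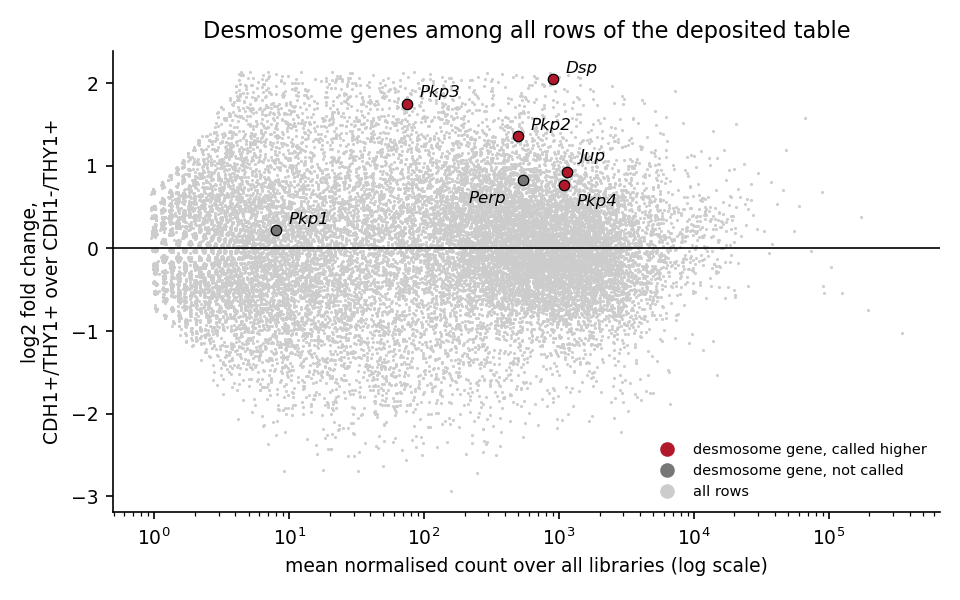
Log2 fold change (y axis, ratio of CDH1+/THY1+ to CDH1-/THY1+) against the mean normalised count over all libraries (x axis, log scale) for all 22432 rows (grey) and the desmosome genes (red where called higher, dark grey where not called). All 7 desmosome genes lie above 0, and Dsp lies close to the upper end of the rows, 2.14.

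Promoter sequence was at hand for 3 of the desmosome genes called higher, Dsp, Jup and Pkp4. The 250 bases before the RefSeq start are printed 5′ to 3′ in the direction of the gene (RefSeq, GRCm38.p6), with matches to any of 6 searched motifs in capitals.
Dsp, chr13:38151044-38151293, plus strand: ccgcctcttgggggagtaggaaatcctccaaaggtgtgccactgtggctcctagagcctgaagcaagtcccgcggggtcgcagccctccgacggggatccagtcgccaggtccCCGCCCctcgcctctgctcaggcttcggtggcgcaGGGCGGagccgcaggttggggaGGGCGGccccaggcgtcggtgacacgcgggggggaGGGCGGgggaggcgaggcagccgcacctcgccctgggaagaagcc
Jup, chr11:100397791-100398040, minus strand: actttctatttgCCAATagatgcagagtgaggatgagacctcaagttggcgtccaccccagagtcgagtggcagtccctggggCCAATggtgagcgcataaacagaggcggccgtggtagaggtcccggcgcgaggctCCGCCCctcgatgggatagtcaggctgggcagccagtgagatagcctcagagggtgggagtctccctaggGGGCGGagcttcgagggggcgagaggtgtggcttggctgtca
Pkp4, chr2:59160600-59160849, plus strand: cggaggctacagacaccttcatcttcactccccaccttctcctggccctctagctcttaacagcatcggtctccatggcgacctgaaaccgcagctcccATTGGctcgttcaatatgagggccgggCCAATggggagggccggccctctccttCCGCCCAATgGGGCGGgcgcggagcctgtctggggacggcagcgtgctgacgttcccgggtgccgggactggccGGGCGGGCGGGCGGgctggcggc

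The motifs were searched on both strands: the GC box GGGCGG, the CCAAT box CCAAT, the Snail E-box CAGGTG, the AP-1 site TGANTCA, the TEAD site GGAATG and the TATA box TATAAA. All 3 printed windows held the GC box, with 4 matches in Dsp, 2 in Jup and 5 in Pkp4, where 32.7% of 32851 mouse promoter windows of that length held at least 1. Some matches of the run beside the Pkp4 start overlap each other, and 1 GC box match in Pkp4 overlaps a CCAAT match. The CCAAT box was in the Jup window, with 2 matches, and in the Pkp4 window, with 3, and 33.8% of all windows held it. A second annotated start of Pkp4 (chr2:59161619-59161868 before it) held 1 Snail E-box, a motif that 17.2% of windows held, and neither the GC box nor the CCAAT box. The letters of the AP-1 site (6.75% of windows), the TEAD site (12.6%) and the TATA box (12.4%) were in none of the 4 windows. CpG counts of the 3 printed windows were 22 for Dsp, 13 for Jup and 21 for Pkp4, against a median of 6 over all windows (quartiles 2 and 16). The GC contents were 72.4% for Dsp, 62% for Jup and 68.4% for Pkp4, against a median of 52.4%. The share of windows holding the GC box was not adjusted for GC content.

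Among the genes with an adjusted p of the filaments that desmosomes anchor, the share called was close to that of all genes. Of 14 listed keratin and other intermediate filament genes, 8 had a row and 6 an adjusted p. Of these 6, 2 rose and 0 fell (2 and 1 at an unadjusted p under 0.05), where 33.5% of all genes were called in either direction. Krt19, a keratin of simple epithelia, rose to 1.82 ± 0.62 (adjusted p = 0.0122), and Vim, the filament gene of mesenchymal and many cultured cells, to 0.95 ± 0.26 (adjusted p = 0.00154) per the authors' deposited table. Vim had a mean count of 18387 and Krt19 of 251 per the authors' deposited table. Krt8 and Krt18, the main keratin pair of simple epithelia, were not analysed here. The list's share called and its median of 0.72 do not cover them or the other listed genes without a row. Of the 7 other desmosomal cadherin genes listed, Dsc3 and Dsg3 had rows with mean counts of 4.53 and 1.29 per the authors' deposited table, and neither was called.

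Cytolinkers related to desmoplakin rose in 3 of 4 genes with a row, from 6 listed, with a median of 0.79. Of all genes with an adjusted p, 33.5% were called in either direction and 17.1% higher. Macf1, which links actin to microtubules, had 1.20 ± 0.16 (adjusted p = 7.33e-13) and Dst, whose epithelial form ties keratin to hemidesmosomes, 0.82 ± 0.18 (adjusted p = 4.6e-05) per the authors' deposited table. Plec, the plectin gene, had 0.75 ± 0.21 (adjusted p = 0.00233) per the authors' deposited table. These 3 standard errors were below that of Dsp, and their mean counts were 5134, 5676 and 9311. Hemidesmosome genes, which anchor filaments to the basement membrane, rose in 4 of 8, from 9 listed, with a median of 0.63 and 0 lower (5 higher and 1 lower at an unadjusted p under 0.05). Dst and Plec stand in both lists, and the integrin subunit gene Itgb4 had 1.44 ± 0.40 (adjusted p = 0.00173) per the authors' deposited table.

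Armadillo relatives of the plakophilins gave 0 higher and 1 lower of 4 (1 of each at an unadjusted p under 0.05), with a median of -0.02. For comparison, 17.1% of all genes with an adjusted p were called higher and 16.4% lower. Ctnnd2, the delta-catenin of neurons, fell to -0.90 ± 0.33 (adjusted p = 0.0209), and Ctnnb1, beta-catenin, was at 0.22 ± 0.10 without a call (adjusted p = 0.0901) per the authors' deposited table. Whether the plakophilins differ from these relatives was not tested, since the table gives no covariance between genes. Regulators of desmosome assembly and turnover had 4 higher and 2 lower of 15 with an adjusted p, from 16 listed, and a median of 0.05. Kif5b, the kinesin-1 heavy chain, had the largest change, 1.01 ± 0.12 (adjusted p = 9.68e-15), per the authors' deposited table. The receptor gene Egfr followed at 0.59 ± 0.17 (adjusted p = 0.00346), the raft protein gene Flot1 at 0.50 ± 0.17 (adjusted p = 0.0141) and the calcium pump gene Atp2a2 at 0.43 ± 0.12 (adjusted p = 0.00112) per the authors' deposited table. The 2 lower genes were Flot2, the partner of Flot1, at -0.42 ± 0.14 (adjusted p = 0.00963), and the palmitoyltransferase gene Zdhhc5 at -0.34 ± 0.14 (adjusted p = 0.0399) per the authors' deposited table.

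Transcription factors that regulate junction genes had 6 higher and 0 lower of 13, also at an unadjusted p under 0.05, from 14 listed, with a median of 0.25. The called ones included Trp53, a direct activator of Perp, at 0.87 ± 0.19 (adjusted p = 4.47e-05) per the authors' deposited table. They also included repressors of epithelial genes, Snai2 at 1.09 ± 0.37 (adjusted p = 0.0136) and Zeb2 at 0.63 ± 0.24 (adjusted p = 0.0294), and the factor gene Klf4 at 0.60 ± 0.23 (adjusted p = 0.0291) per the authors' deposited table. The remaining 2 were Trp63 at 1.37 ± 0.47 (adjusted p = 0.0129) and Trp73 at 1.54 ± 0.55 (adjusted p = 0.0187), relatives of Trp53 with mean counts of 23.3 and 17.8 per the authors' deposited table. Zeb1, with the highest mean count of the list, 1386, was at 0.14 ± 0.23 (adjusted p = 0.681) per the authors' deposited table. Partners of Pkp2 at the intercalated disc of heart muscle had 1 higher and 1 lower of 7, with a median of 0.17. Ldb3, a Z-disc gene, was higher at 0.79 ± 0.31 (adjusted p = 0.0345) per the authors' deposited table. Tjp1, the gene of the junction scaffold ZO-1, was at -0.40 ± 0.17 without a call (adjusted p = 0.0565) per the authors' deposited table. Over all 8 lists, 59 of 75 distinct genes had a row, 18 of 56 with an adjusted p were higher and 4 lower, and the median was 0.29. Over all genes with an adjusted p, 33.5% were called, 17.1% higher and 16.4% lower.

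**Figure D4:**
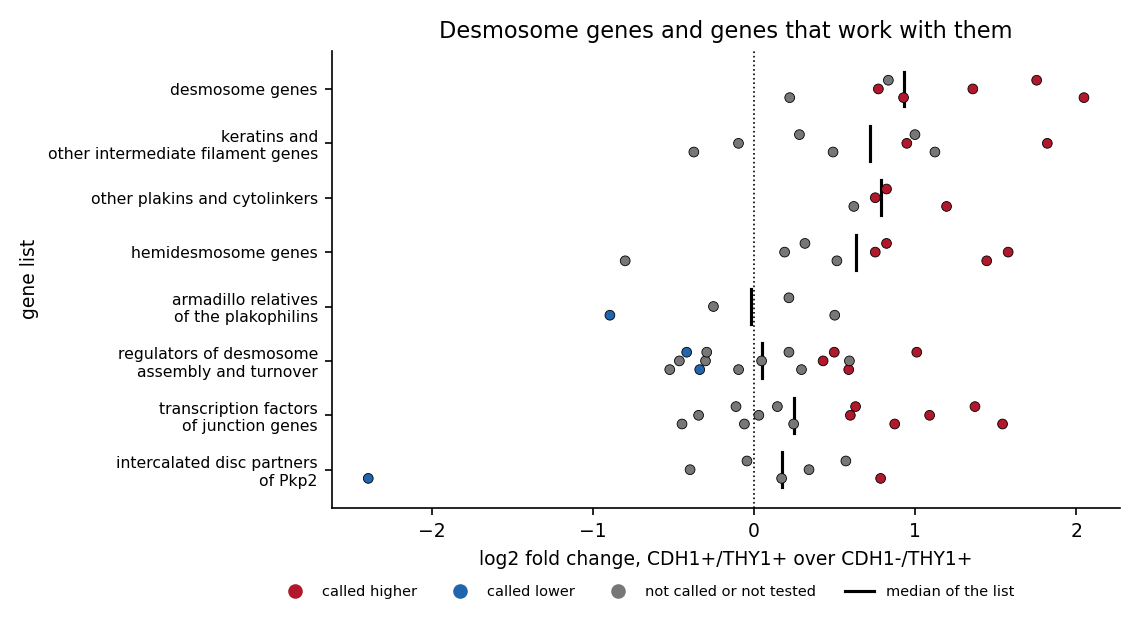
Log2 fold change (x axis, ratio of CDH1+/THY1+ to CDH1-/THY1+) of the desmosome genes and of 7 lists of genes that work with them (y axis), from the authors' deposited table; each point is a gene, red where called higher, blue where called lower and grey where not called or not tested, and the black bar is the list's median. Medians are 0.93 for the desmosome genes, 0.79 for cytolinkers and -0.02 for the armadillo relatives.

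Standard errors of the desmosome genes were large for their mean counts. Per the authors' deposited table, 5 of the 7 had standard errors at or above the 90th percentile among the 200 genes of nearest mean count, namely Dsp (100), Perp (98.5), Jup (97.5), Pkp3 (92.0) and Pkp2 (91.5). Pkp4 stood at percentile 77.5 and Pkp1 at 59.5. Some marker lists also had large standard errors. The median percentile was 94.5 for simple epithelium markers, 64.75 for Sertoli cell markers and 41.5 for keratinocyte markers. Feeder fibroblast markers had 4 higher (Prrx1, Loxl1, Col5a1 and Fbn1) and 0 lower of 18 (10 and 0 at an unadjusted p under 0.05; median 0.65), with a summed mean count of 280285 and a median percentile of 95, and pluripotent-like markers had 5 higher of 5 with a row, from 12 listed (median 1.93), with a median percentile of 98.5. Male germ cell markers had 0 higher and 11 lower of 14 (median -1.49), with a summed mean count of 48603 and a median percentile of 84.8. The shares called over all genes with an adjusted p were 17.1% higher and 16.4% lower.

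Among epithelial markers with an adjusted p, the shares called were near the 33.5% of all genes. These shares do not cover the 7 simple epithelium and 2 keratinocyte markers without a row. No row of any gene lay above a log2 fold change of 2.14. Simple epithelium markers had 2 higher (Krt19 and Cldn3) and 0 lower of 7 with a row, also at an unadjusted p under 0.05, from 14 listed, and Epcam, with a mean count of 2411, was at 0.42 ± 0.29 without a call (adjusted p = 0.265) per the authors' deposited table. Keratinocyte markers had 1 higher (Trp63) and 1 lower (Lgals7) of 5 with an adjusted p, from 9 listed. Sertoli cell markers had 1 higher (Amhr2) and 0 lower of 7, from 10 listed, and 3 higher and 0 lower at an unadjusted p under 0.05. Defining keratinocyte genes were close to 0, with mean counts of 1.499 for Krt5, 2.90 for Krt14 and 5.22 for Ivl per the authors' deposited table. The part of fibroblasts, of pluripotent-like cells and of simple epithelial cells in the desmosome values was not tested.

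**Figure D5:**
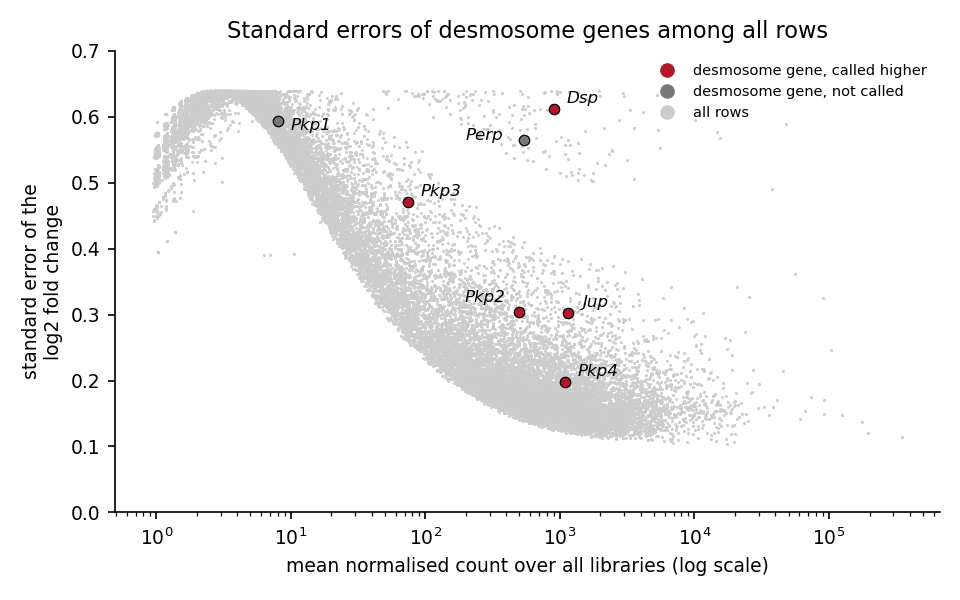
Standard error of the log2 fold change (y axis) against the mean normalised count over all libraries (x axis, log scale) for all 22432 rows of the authors' deposited table (light grey) and the desmosome genes (red where called higher, dark grey where not called). Dsp, at 0.61, and Perp, at 0.56, lie far above most rows of like mean count, while Pkp4, at 0.20, lies within the main band.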

How the data were processed

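Total RNA of 6 samples had been depleted of ribosomal RNA and sequenced as stranded libraries on an Illumina NextSeq500, per the labels' protocols. The submitters' processing notes name Trimmomatic 0.32, TopHat2 2.1.1, featureCounts, Subread 1.5.0-p3, DESeq2 1.12.3 and R 3.3.1 with build GRCm38.p4. The sources used here give no annotation release, strand setting or model formula.

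The deposited mean normalised count is a signal: counts divided by size factors and averaged over all libraries. The deposited fold change and its standard error are on the log2 scale, the Wald statistic is a deposited score (equal to their quotient to within 2e-07), and the table has a deposited p-value and adjusted p-value per gene. Standard errors of at most 0.639, also at low counts, point to fold changes shrunken towards 0 by the authors, which understates changes of genes with few reads or large spread.

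Symbols, positions and merged exon lengths came from GENCODE M21, matched on the Ensembl identifier without version; 22317 rows matched and 115 did not. The 95% intervals are normal intervals from the standard error. Implied counts of each population solve the deposited mean and fold change for 2 equal groups. Each standard error was ranked against the 200 genes closest in mean count. To count the tests, each candidate number was tried until all ranks behind the adjusted p-values came out whole (tolerance 0.01). Whole reads of the 6 unnamed libraries were solved from mean counts under 9 to within 6e-09. The p-value adjustments, the ranking of standard errors and the solving of reads (at a tighter tolerance) were tried on simulated data. The count of tests was not. Adjustments were made with numpy 2.4.6 and pandas 2.3.3 in Python 3.11.15.

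The members and lists were chosen with earlier results of these data known, so counts and medians are descriptions. In each list, the 4 called genes with the largest changes at a mean count of at least 50 were named, and the gene of the highest mean count where not called; Zdhhc5, Flot2, Trp63, Trp73, Krt8, Krt18, Dsg3 and the marker genes were named beside these. Genes that fit this rule but are not named are not reported here; the list counts include them.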

Additional observations from a re-analysis of the deposited data

How the results depend on the processing

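Of 6 alternative settings, 4 kept all 5 desmosome calls. A Benjamini-Yekutieli adjustment left 3 calls, and Dsp (adjusted p = 0.0523) and Jup (adjusted p = 0.117) were no longer called by it. With the top 10% of standard errors at a given mean count left out, 1 desmosome gene was called, Pkp4 (adjusted p = 0.000784), since that setting leaves out Dsp, Jup, Pkp2, Pkp3 and Perp. The median of the desmosome genes was 1.14 over those averaging 50 or more. The 22 calls among the genes of the 8 lists became 12 at an adjusted p under 0.01 and 11 with the Benjamini-Yekutieli adjustment, and were 17 to 24 under the other 3 settings. Re-adjusted p-values ran over the rows analysed and not over all 19743 tests. No paired analysis was possible because the table holds no value per sample, and fits with the culture as a block or with each culture left out were not run. The standard errors of Dsp, Perp and Pkp1 limit what can be said of these genes.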

Other observations

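Whole reads per library were worked out for Pkp1, the 1 desmosome gene with a mean count under 9. The authors' deposited table corresponds to 49 reads of Pkp1, with 18, 6, 9, 7, 4 and 5 in the 6 libraries in order of falling size factor. Divided by the size factors these are 16.7, 5.90, 8.93, 7.03, 4.10 and 5.48. Which sample each library is remains unknown. Pkp1 was thus detected in all 6 libraries, with 36.7% of its reads in 1 of them.

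Reads of the skin-type desmosomal cadherin Dsg3 numbered 8, of which 4 lay in that same library and 0 in another. Dsc3, a desmocollin, had 27 reads with 1 to 8 per library, and its highest value was in a different library. The keratinocyte keratin gene Krt14 had 18 reads, of which 8 and 7 lay in the 2 libraries of largest size factor. Ivl, the involucrin gene of the cornified envelope, had 32, of which 16 lay in the library of the largest size factor. Krt5, with 9 reads, and Krt15, with 13, had at most 3 in any library, and the 42 reads of Krt80 were highest in another library. Of the 9 genes solved, 5 were highest in the library of the largest size factor. Some of these lead by few reads, as Krt5 does with 3 there and at most 2 elsewhere. The share over all genes of low mean count was not worked out, so the 5 of 9 is a description only.

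A band of genes with high mean counts and large standard errors was seen in the plot of standard errors and was picked out after that plot had been drawn. Of 11173 rows with a mean count of at least 100, 169 had a standard error of at least 0.5 per the authors' deposited table, and 144 of these had a fold change above 0 and 25 below. In this band 34 of the 169 rows were called higher, a share not far from the 17.1% of all genes with an adjusted p. None was called lower, where 16.4% of all genes with an adjusted p were. Of the 22432 rows, 22330 had a p-value, and a row without one stands as not called. It holds the desmosome genes Dsp and Perp, the keratin gene Krt19, the fibroblast markers Col1a2, Dcn, Lum, Pdgfra and Pdgfrb, and the pluripotency-associated genes Sox2 and Zfp42.

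The nearest protein-coding genes with a row, 1 on each side of each of the 7 desmosome genes, lay up to 257 kb away. Genes without a row were passed over. These neighbours were called higher in 4 of 14 cases and lower in 1, together close to the 33.5% of all genes with an adjusted p called in either direction. By direction, 17.1% of all genes with an adjusted p were called higher and 16.4% lower. Ccdc148, which lies 0.167 kb before Pkp4 on the chromosome, had -0.49 and no call (adjusted p = 0.567) per the authors' deposited table, and was chosen for its position.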
